A study of Mus musculus with 9 samples.

Results

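Cholesterol synthesis and its control by the sterol regulatory element-binding proteins (SREBPs) were examined in spontaneous osteosarcomas of genetically engineered mouse models (GEMMs). The 8 genes were chosen by symbol, as *Hmgcs1*, *Idi1*, *Fdft1*, *Sqle*, *Lss*, *Srebf1*, *Srebf2* and *Insig1*, from the 55367 genes of the deposited count table, and all 8 passed the filter on low counts. Whole-tumor RNA was sequenced from 4 p53-driven tumors, of genotype Col2.3-Cre/TrpP53fl/+, and from 5 Myc-knockin tumors, labelled Cre-Lox-Stop-Lox;(LSL)-c-MycT58A on a p53fl/+ background. Both models therefore carried a Cre driven by an osteoblast promoter and a floxed p53 allele, and they differed in the Myc allele, whose mutated product escapes a phosphorylation that marks MYC for degradation. The ages of the mice with these tumors are not given in the sources used here. The paper reports a shorter median time to sacrifice for the Myc-knockin than for the p53-driven model, so genotype and age cannot be told apart. The p53-driven tumors are named F187, F325, F331 and F368, and the Myc-knockin tumors M351, M408, M624, M664 and M9. The supporting data of the study tie all the F tumors, M408 and M624 to a genotype, whereas M351, M664 and M9 joined the Myc-knockin group on the letter M alone. The labels do not say how the tumors relate to litters or days of processing, so the p-values measure the spread between these samples.

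Cholesterol is built from acetyl-CoA through mevalonate, isoprenoids and squalene in a long chain of enzymes. The enzymes' genes are transcribed under SREBP-2, the product of *Srebf2*, while SREBP-1, the product of *Srebf1*, acts chiefly on fatty acid synthesis. When sterols are plentiful, INSIG proteins hold the SREBPs and their escort SCAP in the endoplasmic reticulum, and when sterols fall the SREBPs travel to the Golgi, are cut and enter the nucleus. *Insig1* is itself an SREBP target, so its transcript is often read beside those of the enzymes.

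Upstream sequence from RefSeq (build GRCm38.p6, the assembly of mm10) was available for 6 of the 8 genes, and the stretches for 3 of them are shown because they hold the motifs searched for and belong to an early enzyme of the chain, its regulator and the regulator's brake. *Fdft1* and *Sqle* are not in that table. Each sequence reads 5′ to 3′ on the plus strand and ends before the annotated start of the gene. Capitals mark matches on either strand to the sterol regulatory element TCACNCCAC, the E-box CACGTG or the CCAAT box, which reads ATTGG on the other strand, and no match overlapped another.
Hmgcs1 (chr13:119690101-119690350): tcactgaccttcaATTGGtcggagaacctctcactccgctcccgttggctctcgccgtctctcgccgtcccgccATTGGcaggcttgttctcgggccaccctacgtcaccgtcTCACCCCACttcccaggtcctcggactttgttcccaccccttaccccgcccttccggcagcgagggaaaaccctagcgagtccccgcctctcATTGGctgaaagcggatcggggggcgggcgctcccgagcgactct
Srebf2 (chr15:82147019-82147180): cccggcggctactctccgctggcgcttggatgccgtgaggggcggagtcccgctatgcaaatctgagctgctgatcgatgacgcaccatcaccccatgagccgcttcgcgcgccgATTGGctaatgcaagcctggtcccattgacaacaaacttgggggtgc
Insig1 (chr5:28071162-28071362): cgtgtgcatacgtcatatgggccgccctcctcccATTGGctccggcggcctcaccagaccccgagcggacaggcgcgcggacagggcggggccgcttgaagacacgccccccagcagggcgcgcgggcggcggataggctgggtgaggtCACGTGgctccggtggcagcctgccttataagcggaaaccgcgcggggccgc

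In the 250 bases before the RefSeq start, *Hmgcs1* held 1 sterol regulatory element, 137 bases upstream, and 3 CCAAT boxes. *Insig1* held 1 E-box, 101 bases upstream, and 1 CCAAT box. Across all 32851 windows of that length in the table, 1.05% held the sterol regulatory element, 6.02% the E-box, the motif that MYC with MAX is known to bind, and 33.85% the CCAAT box. Of the 17 cholesterol synthesis enzymes in the table, 16 held a CCAAT box, 3 an E-box (*Dhcr7*, *Hsd17b7* and *Sc5d*) and 1, *Hmgcs1*, the sterol regulatory element as spelled here. An enzyme was counted if any of its windows matched, whereas the percentages count single windows, so the counts and percentages differ in unit. A match describes these letters only, and factor binding was not measured.

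The libraries differed in ways that bear on these genes. Total counts ranged from 2716322 to 17073285, so a floor of 3 counts ranged from 0.114 CPM (counts relative to library size) in M624 to 2.39 CPM in M9. In F187, M351, M408 and M9, between 23.2% and 81.0% of counts fell on 12 satellite-repeat genes, against at most 0.0242% in the others. Genomic background, estimated from chemosensory receptor genes that bone tumors should not transcribe, made up 0.598% of the counts outside satellites in M408, 5.49% in F187, 16.8% in M351 and 24.1% in M9. M624 and M664 were the deepest libraries and held *Rn7sk*, an abundant small nuclear RNA, at 5.33 and 9.32 CPM of the raw library, against at least 3336 CPM in each of the other 7. Both are Myc-knockin tumors, and the remaining Myc-knockin libraries, M351, M408 and M9, all belong to the satellite set. Among the p53-driven libraries only F187 belongs to either set. Genotype and library type therefore cannot be told apart, whichever set is left out. Results are given with and without each set of libraries where they change. *Myc*, measured to check the labels, was higher in all 5 Myc-knockin tumors, at 144 to 1045 CPM against 43.5 to 67.1 CPM (log2 fold change 3.41, edgeR adjusted p = 0.0217). The *Myc* value was 2.60 when M624 and M664 were dropped (edgeR adjusted p = 0.0300), and the call was lost on library sizes alone (edgeR adjusted p = 0.0659) and without F325, F331 or F368 (edgeR adjusted p of 0.0813, 0.0782 and 0.0909).

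Between the models, the fold changes of the 8 genes lay on both sides of no change, and only for *Insig1* did the groups not overlap. A gene was called where edgeR's quasi-likelihood test gave a Benjamini-Hochberg adjusted p below 0.05, over 15365 genes, and the fold change exceeded 1.5. By this rule 0 of the 8 genes were called, where 5.27% of all genes tested were. Of the 8 log2 fold changes, Myc-knockin over p53-driven, 4 were positive and 4 negative, and 3 had an unadjusted p under 0.05, as did 4112 (26.8%) of all 15365 genes. DESeq2 and limma-voom each called 1 of the 8, *Insig1*. Over all genes, DESeq2 called 2317 of 47572 and limma-voom 1663 of 15365, and these totals also stand beside their calls in the lists below. The median log2 fold change of the 8 was 0.30, beside 0.14 over all genes tested. The share of all genes tested whose groups did not overlap was 13.0%, 5.41% with the Myc-knockin tumors higher and 7.54% with them lower. The 1 such gene among the 8 is near that share. The values below are CPM after edgeR's TMM normalization, and a log2 fold change with its standard error (SE) always reads Myc-knockin over p53-driven.

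**Figure D1:**
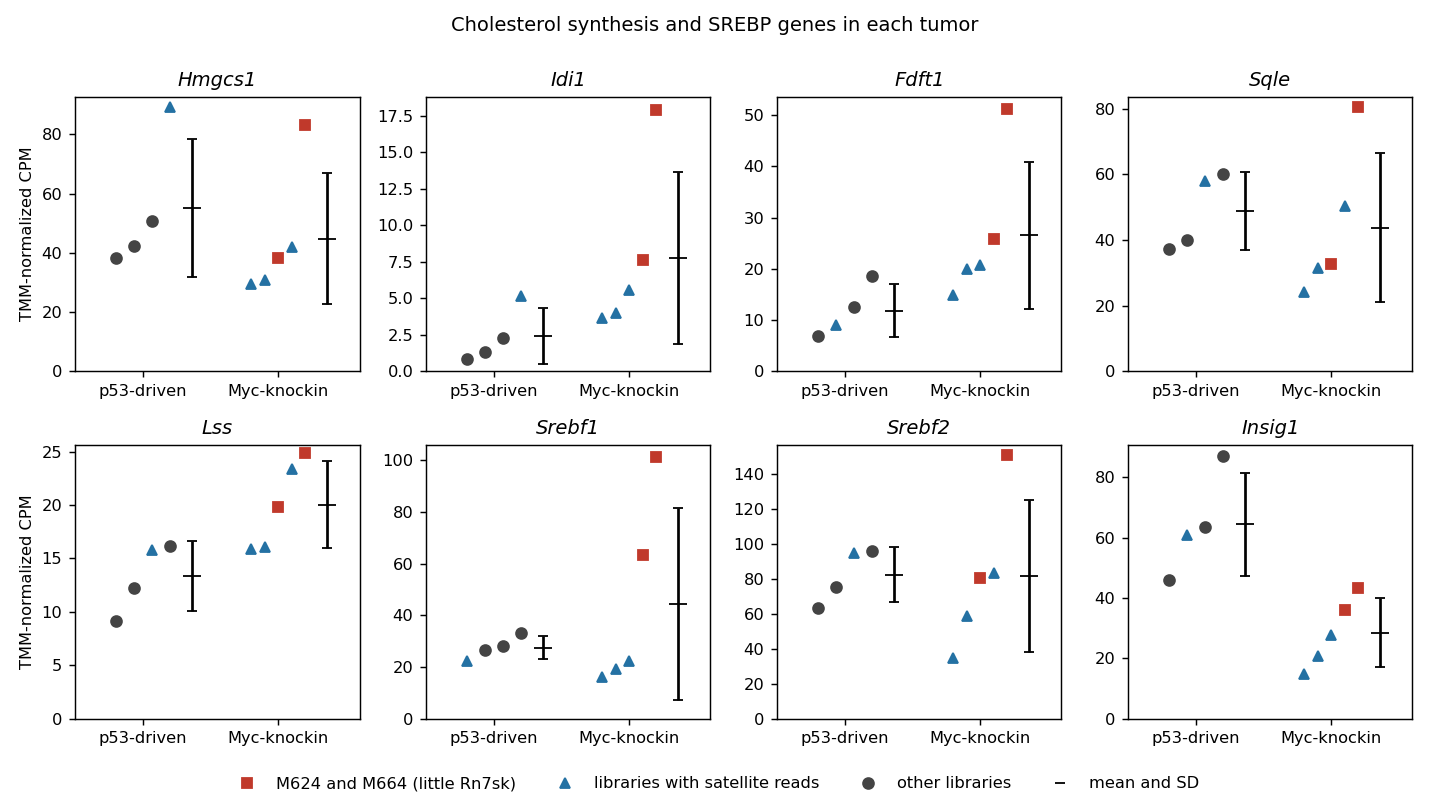
TMM-normalized CPM (vertical axes, each starting at 0) of the 8 genes in the 4 p53-driven and 5 Myc-knockin tumors, 1 point per tumor, with marker shapes for the library sets and a bar for the mean and SD of each group. M624 is the highest Myc-knockin point in all 8 panels, and only in the *Insig1* panel do the groups not overlap.

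Among the mevalonate enzymes, *Hmgcs1* (ENSMUSG00000093930, chromosome 13 of mm10, 119690379 to 119708260) encodes the HMG-CoA synthase of the cytosol, an early step of the pathway. It was at 89.3, 50.8, 42.3 and 38.2 CPM in F187, F325, F331 and F368, and at 30.8, 41.9, 83.3, 38.1 and 29.5 CPM in M351, M408, M624, M664 and M9. F187 and M624 stood above all other tumors, 3 Myc-knockin tumors lay under the lowest p53-driven tumor, and the groups overlapped. The log2 fold change was −0.28 (SE 0.38, edgeR adjusted p = 0.668). It was −0.61 without M624 and M664 and 0.49 without the 4 libraries with satellite reads, and edgeR called neither.

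*Idi1* (ENSMUSG00000058258, chromosome 13, 8885501 to 8892451) encodes the isomerase that makes dimethylallyl pyrophosphate, the primer of isoprenoid chains. It was the lowest of the 8 in CPM, at 5.13, 2.26, 1.30 and 0.851 CPM in F187, F325, F331 and F368. In M351, M408, M624, M664 and M9 it was at 5.54, 3.66, 17.9, 7.64 and 3.98 CPM. M624, M664 and M351 exceeded every p53-driven tumor, while M408 and M9 lay below F187. The log2 fold change of 1.81 was the highest of the 8 and was not called (SE 0.69, edgeR adjusted p = 0.126).

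The counts behind *Idi1* were few. It had 470 counts in M624 and 177 in M664, but 29 or fewer in each of the other 7 tumors. The genomic background predicts 2.49 of the 13 counts in F187, 3.94 of the 9 in M351 and 4.36 of the 5 in M9, so its level in M9 could not be separated from background. Among the 5 libraries without satellite reads, where M624 and M664 were the only Myc-knockin tumors, *Idi1* was called with a log2 fold change of 3.11 (edgeR adjusted p = 0.0168), in a comparison that called 27.9% of all genes tested. Once that pair was left out and the others kept, the value was 0.98 (edgeR adjusted p = 0.407).

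The sterol branch begins with squalene. *Fdft1* (ENSMUSG00000021273, chromosome 14, 63145150 to 63179578) encodes squalene synthase, which directs the pathway towards sterols. It was at 9.08, 18.7, 6.92 and 12.5 CPM in F187, F325, F331 and F368, and at 14.8, 20.0, 51.3, 25.7 and 20.7 CPM in M351, M408, M624, M664 and M9. All Myc-knockin tumors but M351 lay above the highest p53-driven tumor, before any subtraction of background. Background accounted for an estimated 3.0 of its 23 counts in F187, 4.8 of 24 in M351 and 5.3 of 26 in M9, so the place of M9 just above F325 is uncertain. The log2 fold change was 1.18 (SE 0.43, edgeR adjusted p = 0.114), and it ranged from 0.70 without M624 and M664 to 1.62 without the libraries with satellite reads, with no call in either. *Fdft1* shares 774 exon bases with *Ctsb*, a cathepsin gene on the opposite strand that held 60574 counts in all against 2547 for *Fdft1*. *Ctsb* had a log2 fold change of −0.41 (edgeR adjusted p = 0.605), and since the strand setting of the counting is not given in the sources used here, reads of the pair cannot be told apart with certainty.

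*Sqle* (ENSMUSG00000022351, chromosome 15, 59315077 to 59331192) encodes squalene epoxidase, a rate-limiting oxygen-dependent step. It was at 58.1, 60.1, 37.3 and 40.1 CPM in F187, F325, F331 and F368, and at 31.4, 24.0, 80.5, 32.7 and 50.2 CPM in M351, M408, M624, M664 and M9. M624 exceeded every other tumor, and M351, M408 and M664 lay below every p53-driven tumor. The log2 fold change was −0.15 (SE 0.37, edgeR adjusted p = 0.822), and it was 0.32 without the libraries with satellite reads (edgeR adjusted p = 0.605).

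*Lss* (ENSMUSG00000033105, chromosome 10, 76531588 to 76557138) encodes lanosterol synthase, which closes the sterol rings. It was at 15.8, 12.2, 9.17 and 16.2 CPM in F187, F325, F331 and F368, and at 23.4, 16.1, 24.9, 19.8 and 15.9 CPM in M351, M408, M624, M664 and M9. M351, M624 and M664 were above all p53-driven tumors, and the other two Myc-knockin tumors fell just under F368. It had the narrowest range of the 8, 2.71-fold from lowest to highest tumor, with a log2 fold change of 0.60 (SE 0.29, edgeR adjusted p = 0.220). Background accounted for an estimated 7.66 of its 40 counts in F187, 12.1 of 38 in M351 and 13.4 of 20 in M9.

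The rest of the pathway was read out of the same fit. Of the 22 enzyme genes of the mevalonate and sterol branches, 0 were called, 14 had positive and 8 negative log2 fold changes, and the median was 0.14, the same to 2 decimals as over all genes tested. The 9 mevalonate genes had a median of 0.17 and the 13 sterol genes one of 0.10. In edgeR, 5 of the 22 had an unadjusted p under 0.05, beside the 26.8% of all genes, and DESeq2 and limma-voom also called 0 of the 22.

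*Lbr*, chosen after its values were seen, was the 1 enzyme of the 22 whose groups did not overlap, beside 13.0% of all genes tested. It was at 35.4 to 44.6 CPM in the p53-driven and 45.2 to 75.1 CPM in the Myc-knockin tumors. It encodes a sterol reductase that also binds lamin at the inner nuclear membrane, and its log2 fold change of 0.56 was not called (edgeR adjusted p = 0.173). Among the 5 libraries without satellite reads, 3 of the 22 enzymes were called, all higher in M624 and M664: *Idi1*, *Mvd* (log2 fold change 2.43, edgeR adjusted p = 0.00827) and *Dhcr7* (2.09, edgeR adjusted p = 0.0241). In that set 4595 of 16495 genes (27.9%) were called, so the enzymes' share was below that of all genes. Without M624 and M664, 21 enzymes were tested and 0 were called, and 4 had an unadjusted p under 0.05 in edgeR, beside 3675 of 14308 genes (25.7%).

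**Figure D2:**
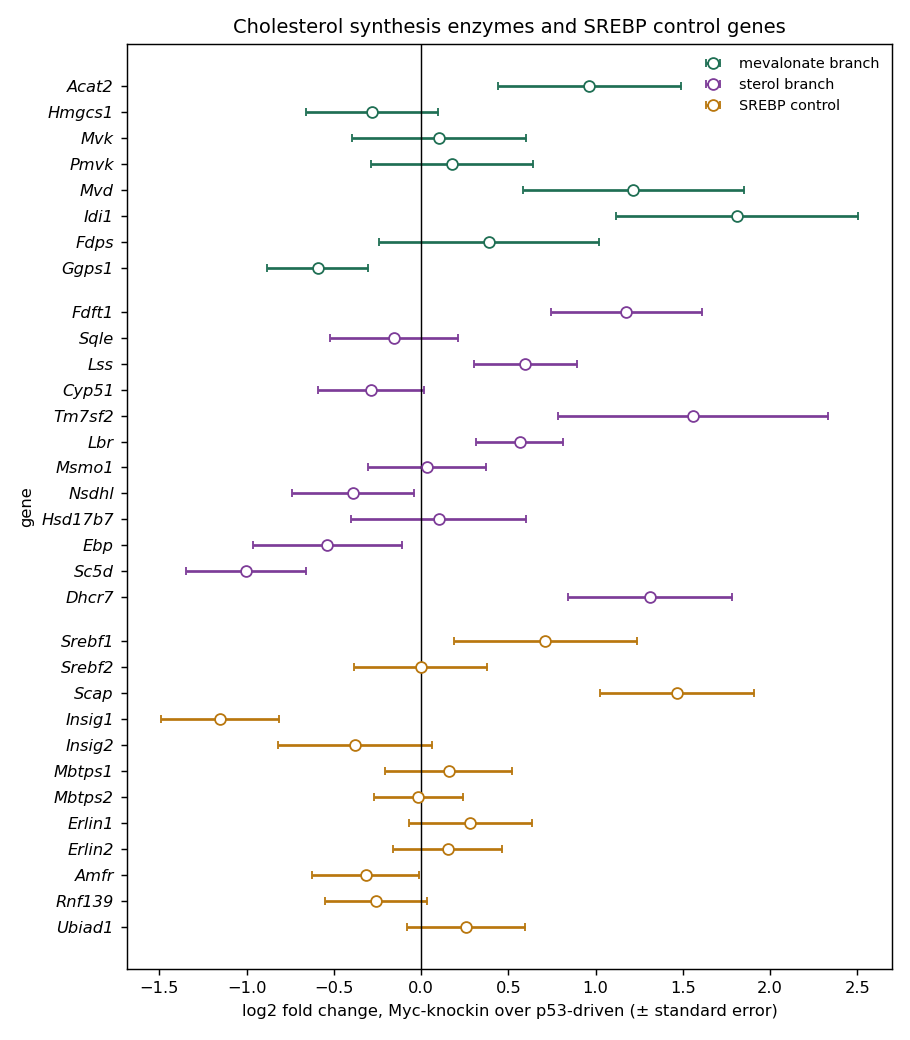
Log2 fold change, Myc-knockin over p53-driven, with its standard error for 20 of the 22 cholesterol synthesis enzymes in pathway order and 12 SREBP control genes; open points did not pass edgeR's test. Points lie on both sides of 0 in each group, and all of them are open.

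Of the SREBP genes, *Srebf2* had like means in both models when all tumors were included. *Srebf2* (ENSMUSG00000022463, chromosome 15, 82147181 to 82205379), which encodes SREBP-2, was at 94.8, 95.8, 63.6 and 75.1 CPM in F187, F325, F331 and F368. In M351, M408, M624, M664 and M9 it was at 34.5, 58.8, 151, 80.6 and 83.7 CPM. The Myc-knockin tumors spanned both sides of the p53-driven range, with M624 above it and M351 and M408 below it. The group means were 81.7 ± 43.5 CPM (SD, n = 5) and 82.3 ± 15.7 CPM (SD, n = 4). The Myc-knockin tumors other than M624 and M664 had a mean of 59.0 ± 24.6 CPM (SD). The log2 fold change of −0.0035 (SE 0.38, edgeR adjusted p = 0.996) changed sign in 12 of 20 alternative fits. It was −0.43 without M624 and M664 (edgeR adjusted p = 0.422) and −0.64 with limma-voom (adjusted p = 0.197). Without the 4 libraries with satellite reads it was 0.59 (edgeR adjusted p = 0.241).

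*Srebf1* (ENSMUSG00000020538, chromosome 11, 60199089 to 60222581), which encodes the SREBP-1 isoforms, was at 22.1, 26.7, 28.1 and 33.2 CPM in F187, F325, F331 and F368. In M351, M408, M624, M664 and M9 it was at 16.0, 22.3, 101, 63.3 and 19.1 CPM. M624 and M664 were above every p53-driven tumor, and the other 3 Myc-knockin tumors lay below or at the bottom of the p53-driven range. The log2 fold change was 0.71 (SE 0.53, edgeR adjusted p = 0.415). It became −0.45 (edgeR adjusted p = 0.274) without M624 and M664, and 1.51 (edgeR adjusted p = 0.0168) without the 4 libraries with satellite reads, so its direction depended on which libraries were compared. The set without satellite reads called 27.9% of all genes tested. *Rai1* on the opposite strand shares 109 exon bases with *Srebf1* and had a log2 fold change of 0.51 (edgeR adjusted p = 0.295).

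The balance of the SREBP genes was also compared within each library, where scaling between libraries plays no part. The log2 CPM of *Srebf1* minus that of *Srebf2* was −1.57 ± 0.47 (SD, n = 4) in p53-driven and −1.11 ± 0.70 (SD, n = 5) in Myc-knockin tumors. The difference of 0.46 gave p = 0.317 in a two-sided exact permutation test over all arrangements of the tumors (0.333 after Benjamini-Hochberg adjustment over 2 such comparisons). It shrank to 0.033 (exact p = 1.0) when M624 and M664 were dropped, and was 0.93 (exact p = 0.2) in the libraries without satellite reads. The highest values were −0.35 in M664 and −0.57 in M624, and the lowest were −2.12 in M9 and −2.09 in F187.

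*Insig1* (ENSMUSG00000045294, chromosome 5, 28071363 to 28078662) was the 1 gene of the 8 with no overlap between the models, as was the case for 13.0% of all genes tested. It was at 60.8, 87.3, 46.0 and 63.7 CPM in F187, F325, F331 and F368, and at 14.8, 27.8, 43.3, 36.1 and 20.7 CPM in M351, M408, M624, M664 and M9. The highest Myc-knockin tumor, M624, was just below the lowest p53-driven tumor, F331. The log2 fold change was −1.15 (SE 0.34), and its edgeR adjusted p of 0.0660 missed the threshold, where 3.00% of all genes were called lower and 2.26% higher.

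The *Insig1* difference was called in 6 alternative fits and not called in 14. It was called with upper-quartile normalization (edgeR adjusted p = 0.0428), with genes of at least 10 counts in every tumor (edgeR adjusted p = 0.0401), after background subtraction (edgeR adjusted p = 0.0473), by DESeq2 (adjusted p = 0.0358) and by limma-voom (adjusted p = 0.0186). Leaving out M624 and M664 gave a log2 fold change of −1.52 (edgeR adjusted p = 0.0417), and leaving out the 4 libraries with satellite reads gave −0.70 (edgeR adjusted p = 0.160). When single tumors were dropped, the values were −1.28 to −0.96 and none was called by edgeR (adjusted p of 0.0654 to 0.202). *Insig1* was also not called by edgeR with library size alone (adjusted p = 0.445) or with all genes of at least 1 count (adjusted p = 0.293). The same held without the satellite genes (edgeR adjusted p = 0.0847) and with DESeq2 size factors (edgeR adjusted p = 0.0609).

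The paralog *Insig2*, which is controlled apart from the SREBPs, had a log2 fold change of −0.38 (SE 0.44, edgeR adjusted p = 0.618). Within libraries, *Insig1* minus *Insig2* on the log2 scale was 0.52 ± 0.93 (SD, n = 4) in p53-driven and −0.26 ± 1.25 (SD, n = 5) in Myc-knockin tumors, a difference of −0.78 (two-sided exact permutation p = 0.333, adjusted 0.333). That difference was −1.28 when M624 and M664 were dropped and 0.085 without the libraries with satellite reads, and ran from −1.28 without M624 to −0.42 without M351 as single tumors were left out. Of the 12 SREBP control genes, edgeR called 0, with 2 at an unadjusted p under 0.05 (26.8% over all genes), DESeq2 called 2 (*Insig1* and *Scap*) and limma-voom 1 (*Insig1*). The list had 6 positive and 6 negative log2 fold changes and a median of 0.07.

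*Scap*, the SREBP escort, had the highest log2 fold change of that list, 1.47 (SE 0.44, edgeR adjusted p = 0.0707). It was at 19.4 to 29.8 CPM in the p53-driven tumors and at 36.9, 44.5, 109, 95.3 and 23.9 CPM in M351, M408, M624, M664 and M9. All Myc-knockin tumors but M9 lay above the p53-driven range. *Scap* passed the test without the libraries with satellite reads (log2 fold change 2.13, edgeR adjusted p = 0.00746), in a set that called 27.9% of all genes tested. It had 0.71 without M624 and M664 (edgeR adjusted p = 0.161).

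**Figure D3:**
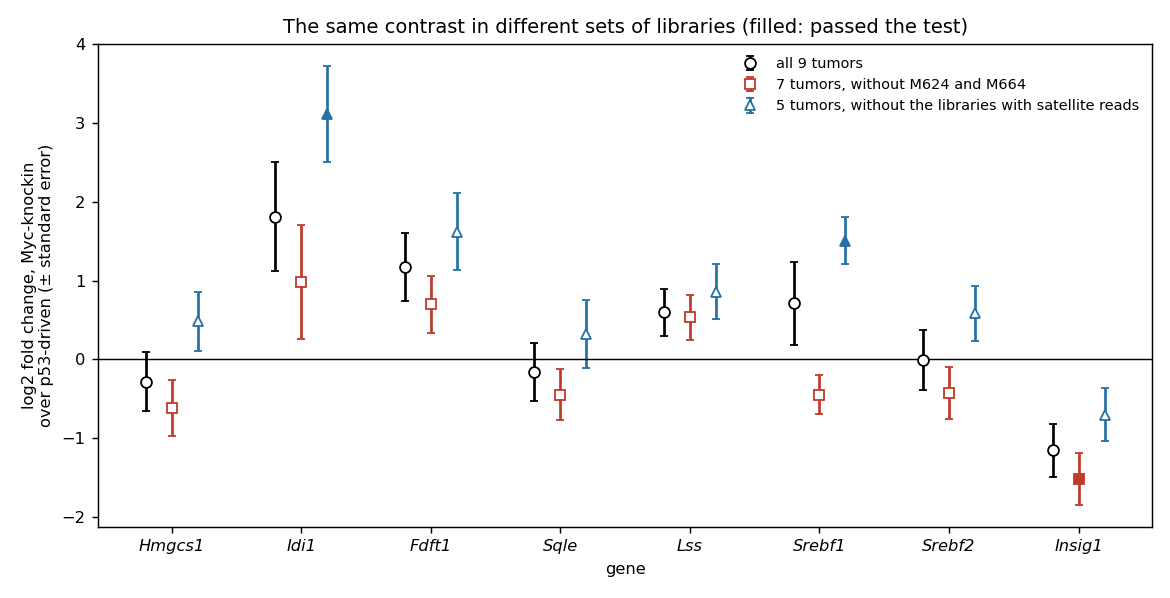
Log2 fold change, Myc-knockin over p53-driven, with its standard error for the 8 genes in 3 sets of libraries: all 9 tumors, 7 tumors without M624 and M664, and 5 tumors without the libraries with satellite reads; filled points passed edgeR's test. *Srebf1* moves from −0.45 to 1.51 between the sets, while *Insig1* stays below 0 in all of them.

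The SD of log2 CPM was larger in the Myc-knockin than in the p53-driven group for 6 of the 8 genes, with 1.18 against 0.24 for *Srebf1* and 0.78 against 0.28 for *Srebf2*, and smaller for *Idi1* (0.93 against 1.12) and *Lss* (0.30 against 0.38). It was larger in the Myc-knockin group for 84.4% of all genes tested, so the wider spread was not particular to these 8. M624 was the highest Myc-knockin tumor for all 8 genes and the highest of all 9 tumors for 6 of them. The ratio of the highest to the lowest tumor ran from 2.71 for *Lss* through 3.03 for *Hmgcs1*, 3.36 for *Sqle*, 4.38 for *Srebf2*, 5.91 for *Insig1*, 6.33 for *Srebf1* and 7.41 for *Fdft1* to 21.0 for *Idi1*. Summed over the 22 enzymes, M624 held 941 CPM, against 393 to 651 CPM in the p53-driven tumors and 422 to 484 CPM in M351, M408, M664 and M9.

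Among lists of cell type markers, only the osteoblast and osteoclast sums did not overlap between the models. The part of cell types in the values of the 8 genes was not tested. Osteoblasts are the lineage that the Cre of both models targets. The sums of 11 macrophage markers were 754 to 1332 CPM in the p53-driven and 258 to 876 CPM in the Myc-knockin tumors. Of the 11, 3 were called lower, where 3.00% of all genes tested were. The log2 fold changes were negative for 7 and positive for 4, *Cd14* (1.13), *Fcgr1* (0.65), *C1qb* (0.56) and *C1qa* (0.17), which were not called. The 11 osteoblast markers summed to 65735 to 141320 CPM against 3610 to 41410 CPM (2 called lower), and the 7 osteoclast markers to 1507 to 8643 CPM against 67.7 to 943 CPM (6 called lower). Of 11 leukocyte markers 5 were tested, with sums of 283 to 517 CPM against 93.7 to 312 CPM. *Lcp1* was called lower and *Ptprc*, the pan-leukocyte CD45 gene, was at −1.37 (edgeR adjusted p = 0.0922), whereas *S100a8* (3.01), *S100a9* (3.02) and *Coro1a* (1.29) had positive log2 fold changes that were not called, so the median of the 5 was 1.29. In the Myc-knockin tumors *S100a8* had a median of 1.55 and a maximum of 41.9 CPM, and *S100a9* 3.54 and 62.8 CPM. The p53-driven tumors were at 0.467 to 2.55 and 0.790 to 3.89 CPM, so many of these values were near the floors. Adipocyte markers, of which 5 of 8 were tested, had 0 calls in edgeR (1, *Fabp4*, at an unadjusted p under 0.05) with sums of 120 to 769 CPM against 95.6 to 197 CPM, and *Lep* was at 0 in 3 tumors. M624 had the lowest macrophage, leukocyte, osteoblast, endothelial and muscle sums of the 9 tumors, with 2.71 CPM over 7 muscle markers against 13.0 to 3970 CPM in the others. The 6 red cell markers, 1 of them tested, summed to 216 CPM in M624 and 783 CPM in M664, against 3.55 to 31.7 CPM in the other 7 tumors. In RNA from whole tumors, fewer cells of a type and less RNA per cell cannot be told apart.

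Levels of different genes were set side by side as CPM per kilobase of exon. The length merged the exons of all annotated transcripts, so a gene with long unused exons reads too low and the order is approximate. On this scale *Insig1* led in the p53-driven tumors at 20.8 ± 5.52 (SD, n = 4). *Hmgcs1* at 12.0, *Srebf2* at 11.5, *Sqle* at 8.82, *Srebf1* at 4.89, *Fdft1* at 2.79, *Lss* at 1.24 and *Idi1* at 0.680 followed as group means. Only *Sqle* from *Srebf1* and *Fdft1* from *Lss* were neighbours in that order whose ranges did not overlap. In the Myc-knockin tumors the order of the group means was *Srebf2* at 11.4, *Hmgcs1* at 9.73, *Insig1* at 9.23, *Sqle* at 7.89, *Srebf1* at 7.88, *Fdft1* at 6.27, *Idi1* at 2.21 and *Lss* at 1.86 per kilobase, and every pair of neighbours overlapped. In the Myc-knockin tumors other than M624 and M664, *Idi1* had a mean of 1.25 and *Lss* one of 1.71, the reverse of their order above. *Insig1* stood above *Srebf2* and *Hmgcs1* in the p53-driven means and below them in the Myc-knockin means.

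Genes with the most similar course over the 9 tumors were sought by the root mean square difference of centred log2 CPM from the mean of the 5 enzymes. That mean was highest in M624 (1.22 above the mean of the tumors) and lowest in F331 (−0.77). Of 9532 genes with a mean of at least 10 CPM, the closest were *Jmjd6* at a difference of 0.199, *Upf1* at 0.217, *Cpsf4* at 0.218, *Paxip1* at 0.219 and *Xpc* at 0.221. The closest gene of the lipid lists was *Fasn*, at rank 48 with a difference of 0.296, and the next was *Acat2*, a mevalonate gene, at rank 312.

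Uptake and intracellular transfer of cholesterol were read from 10 genes, 9 of them tested. *Npc1*, which encodes the membrane protein that exports cholesterol from late endosomes and lysosomes, was the 1 gene that edgeR called in these lipid lists. Over all genes tested, 5.27% were called, 3.00% were called lower, and 13.0% had groups that did not overlap. *Npc1* was at 84.9, 74.8, 113 and 103 CPM in F187, F325, F331 and F368, and at 29.5, 48.9, 26.9, 31.8 and 25.5 CPM in M351, M408, M624, M664 and M9, with no overlap. *Npc1* fell by 1.53 on the log2 scale in the Myc-knockin tumors (SE 0.27, edgeR adjusted p = 0.0217). It was called lower also when M624 and M664 were dropped (−1.35, edgeR adjusted p = 0.0467) and when the satellite libraries were (−1.71, edgeR adjusted p = 0.0144, with 27.9% of all genes called). The call was lost when library size alone was used for scaling (edgeR adjusted p = 0.218) and when F325, F331 or F368 was left out (edgeR adjusted p of 0.0647, 0.0782 and 0.0871). The list's median was −0.07, with 4 positive and 5 negative values, and 3 of the 9 had an unadjusted p under 0.05 in edgeR (26.8% over all genes). DESeq2 called *Mylip* and *Npc1*, and limma-voom called these and *Npc2*. *Mylip*, chosen after its values were seen, encodes a ubiquitin ligase induced by sterols, and its groups did not overlap (log2 fold change −1.10, edgeR adjusted p = 0.0650).

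The 8 genes of sterol efflux and the liver X receptors (LXRs), which respond to surplus sterol, had 0 calls in edgeR, 2 with an unadjusted p under 0.05 (26.8% over all genes), a median of −0.33 and 5 negative values. DESeq2 called *Abca1* in this list, and limma-voom called *Abca1* and *Lpcat3*. *Abca1*, the cholesterol exporter and an LXR target, chosen after its values were seen, was at 234 to 417 CPM in the p53-driven and 89.2 to 201 CPM in the Myc-knockin tumors, with no overlap (13.0% over all genes). Its log2 fold change of −1.16 was not called (SE 0.32, edgeR adjusted p = 0.0560). *Abca1* passed without the libraries with satellite reads (−1.44, edgeR adjusted p = 0.0360), in a set that called 27.9% of all genes tested. Without M624 and M664 it was at −0.97 (edgeR adjusted p = 0.124).

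Fatty acid synthesis, the branch served by SREBP-1, gave 0 calls among 15 genes in edgeR, 5 with an unadjusted p under 0.05 (26.8% over all genes), with 7 positive and 8 negative values and a median of −0.0043. DESeq2 called *Acaca*, *Elovl6* and *Scd1*, and limma-voom called *Acaca* and *Fads2*. *Fasn*, the fatty acid synthase gene, was at 73.5 to 198 CPM in the p53-driven and 151 to 377 CPM in the Myc-knockin tumors (log2 fold change 0.64, SE 0.38, edgeR adjusted p = 0.298). Genes chosen after their values were seen pointed in different directions. *Elovl6*, which lengthens palmitate, had a log2 fold change of 1.19 (SE 0.33, edgeR adjusted p = 0.0594), and *Acaca*, the carboxylase that makes malonyl-CoA, had one of 0.87 (SE 0.27, edgeR adjusted p = 0.0751), both with no overlap (13.0% over all genes). *Scd1*, the desaturase that makes oleate, had one of −1.36 (SE 0.42, edgeR adjusted p = 0.0775), with overlap. *Fads2*, a desaturase of polyunsaturated fatty acids, had one of −1.11 (SE 0.40, edgeR adjusted p = 0.110), also with overlap.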

How the data were processed

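RNA-Seq of 9 whole tumors from mice was analysed, 4 p53-driven and 5 Myc-knockin. The authors enriched mRNA with oligo-dT beads, prepared libraries with a QIAseq stranded kit, used trimGalore for trimming, STAR for mapping to mm10 and featureCounts for counting, and deposited raw counts per gene without normalization. The strand setting and the handling of multimapping reads are not given in the sources used here. The table's columns were placed in groups by name and carry no replicate numbers.

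Counts were tested in R 4.3.3 with edgeR 4.0.16 (glmQLFit, glmQLFTest, TMM, and filterByExpr at 10 counts), and 15365 genes were kept. A call needed a Benjamini-Hochberg adjusted p below 0.05 together with a fold change above 1.5. Log2 CPM used a prior count of 2. Exact permutation tests used scipy 1.17.1. Alternatives used DESeq2 1.42.0, limma-voom (limma 3.58.1) with quality weights, other scalings and filters, subtraction of genomic background (from 1779 chemosensory receptor genes, per kilobase of exon), and other sets of libraries. The code was tested on simulated data. Exon lengths and positions came from the GENCODE annotation, for 55034 of 55367 genes.

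The 8 members and all gene lists were chosen with earlier results of these data known. Named in the text are the 8 genes, the called genes of each lipid list (at most 4 a direction), *Scap*, *Insig2*, *Fasn*, *Myc*, the 5 genes closest to the enzymes' mean and the genes between *Sqle* and *Myc*. Others were chosen after their values were seen, and a few genes of the lists are counted but not reported here by name. Depth ranged from 2716322 to 17073285 counts, and floors cover counting error only.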

Additional observations from a re-analysis of the deposited data

Results flagged for a closer look

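In 17 genes named in the report, each group was searched for a single tumor far from the others, by its gap to the nearest tumor over the range of the group (Dixon's 95% limit). Of 34 groups, 7 had such a tumor. Chance flags about 1 in 20 independent groups, but these share the same 9 tumors, and some of the genes were named after their values were seen. Over all 15365 genes tested, 9.50% of the groups had such a tumor. Among the Myc-knockin tumors, M624 stood apart for *Hmgcs1* (83.3 CPM, next highest 41.9 CPM), *Idi1* (17.9 CPM, next 7.64 CPM) and *Fasn* (377 CPM, next 214 CPM). M624 is also the deepest library and is 1 of the pair with little *Rn7sk*. M408 stood apart for *Npc1* (48.9 CPM, next 31.8 CPM) and M351 for *Mylip* (9.23 CPM, below 20.3 CPM in the next tumor). Among the p53-driven tumors, F325 stood apart for *Scap* (29.8 CPM, next 20.8 CPM) and F331 for *Insig2* (79.9 CPM, next 40.9 CPM).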

How the results depend on the processing

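No paired analysis was possible because the columns carry no replicate numbers. Of all genes tested 809 were called, 43.0% of them higher in the Myc-knockin tumors. The count was 136 with scaling by library size alone, 494 with all genes of at least 1 count, 1316 (59.7% higher) with at least 10 counts in every tumor, 2317 (56.4% higher) with DESeq2, 1663 with limma-voom and 4595 of 16495 (27.9%, of which 56.5% higher) without the 4 libraries with satellite reads, and 5 to 1588 with each tumor left out (5 without F368, 1588 without M9). Scaling by library size alone moved the median log2 fold change of all genes from 0.14 to 0.027. Upper-quartile normalization gave 64.5% and background subtraction 54.8% higher. Of the 8 genes, 1 was called with upper-quartile normalization, at least 10 counts, DESeq2, limma-voom, background subtraction and without M624 and M664, and 2 without the libraries with satellite reads (0 to 0 with each tumor left out); of the 22 enzymes, 3 were called in the last set, where 27.9% of all genes were, and 0 to 0 with each tumor left out.

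Directions turned as follows. *Srebf2* became 0.033 with upper quartile, 0.073 on library sizes, 0.081 with 10 or more counts in every tumor, 0.0033 with DESeq2, 0.0048 without satellite genes, 0.053 after background subtraction and 0.59 without the satellite libraries, and ran from −0.29 to 0.19 with each tumor left out. *Srebf1* became −0.19 with limma-voom and −0.45 without M624 and M664. Without the satellite libraries, *Hmgcs1* became 0.49, *Sqle* 0.32 and *Insig1* minus *Insig2* 0.085. With each tumor left out, *Hmgcs1* ran from −0.58 to 0.026, *Sqle* from −0.45 to 0.033 and *Insig2* from −0.63 to 0.016. The cause of these turns was not tested. Low counts in M351 and M9 limit *Idi1* and *Lss* most.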

Other observations

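*Sqle* lies on chromosome 15, 2.67 Mb from *Myc*. Of 35 annotated genes from *Sqle* to *Myc*, both included, 7 were tested. Their median log2 fold change, Myc-knockin over p53-driven, was −0.15, which is the value of *Sqle* itself. *Myc* was called higher (3.41, edgeR adjusted p = 0.0217) and *Washc5*, which starts next to *Sqle* and encodes a subunit of an endosomal actin-nucleating complex, was called lower (−0.88, edgeR adjusted p = 0.0445). *Trib1* had 0.93 (edgeR adjusted p = 0.216) and *Nsmce2* −0.18 (edgeR adjusted p = 0.713). *Lratd2* had −0.31 (edgeR adjusted p = 0.796) and 9930014A18Rik 0.87 (edgeR adjusted p = 0.624). Over all genes tested, 5.27% were called.

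Several small annotated genes overlap the 8 members. Of 9 overlapping genes, 6 share exon bases with a member, and apart from *Ctsb* and *Rai1* none had more than 14 counts in any tumor. *Mir33*, a microRNA gene inside *Srebf2*, is listed at 0 counts in all 9 tumors.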
